A study of Homo sapiens with 52 samples.

Results

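The transcripts described here are the 300 whose TCP-seq level lay farthest above their Ribo-seq level in wild-type HEK293T cells. They were chosen among 15892 eligible transcripts of the 226882 transcript identifiers in the count table. An eligible transcript had a mean CPM (counts per library total) of 10 or more in 2 wild-type RNA-seq libraries and a mean of at least 20 counts in wild-type TCP-seq replicates 1 and 2, and identical rows were kept once. The ratio that ranked them was log2 of mean TCP-seq CPM over mean Ribo-seq CPM in wild type, with 0.5 CPM added to each. Wild-type RNA-seq, wild-type Ribo-seq and wild-type TCP-seq 1 and 2 therefore chose the members, and values from them are given as description, with no test.

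HEK293T is a transformed human embryonic kidney cell line. Ribo-seq sequences the mRNA fragments protected by translating ribosomes, here after cycloheximide treatment and digestion with RNase I, whereas TCP-seq (translation complex profiling) also recovers fragments held by small (40S) ribosomal subunits. An RNA that is rich in TCP-seq and poor in Ribo-seq is thus one whose fragments are recovered in the one assay and not in the other. eIF2D, and the complex of MCTS1 with DENR, are related factors known for removing tRNA and the 40S subunit from mRNA after termination and for reinitiation downstream of short upstream reading frames. Which fraction of the lysate was taken for plain TCP-seq is not stated in the labels.

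42 libraries in 20 labelled groups were used, each from HEK293T cells. RNA-seq and Ribo-seq each covered wild-type (WT) cells, MCTS1 knockout (KO) clones #1 and #2, cells given a control siRNA (siControl) and cells given siDENR #1 or #2, with 2 libraries per group. TCP-seq covered WT replicates 1 to 4 and 2 libraries of each of eIF2D KO clones #1 and #2 and MCTS1 KO clones #1 and #2. In 40S Sel-TCP-seq, fragments in small-subunit complexes were selected through a V5-tagged protein, eIF2D-V5, MCTS1-V5 or DENR-V5, with 2 libraries each. Each KO line is a clone, so a difference of 1 clone from WT may belong to that clone. Another 10 labelled TCP-seq samples, from cells carrying an empty vector or expressing an eIF2D construct, were not analysed here. Library totals were 76967099 to 301214608 counts in RNA-seq, 16370112 to 193940882 in Ribo-seq, 1609303 to 5053637 in TCP-seq and 356019 to 2582917 in Sel-TCP-seq. Separate cultures are not stated for the replicates in the labels. The p-values then rest on the spread among libraries alone, and this spread may be technical.

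The count table lists versioned transcript identifiers, and no source used here pairs them with genes. Transcripts are therefore given as identifiers, up to 2 in each direction of a comparison, and no gene function, position or sequence is given for them. The levels of the targeted genes and of HEK293T markers could not be checked for the same reason.

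The rule's ratio ran from 3.1 to 8.43 over the members, with a median of 3.98, against a median of 0.04 over all eligible transcripts. ENST00000387409.1 ranked highest, at a log2 ratio of 8.43: it had 228 and 272 CPM in WT TCP-seq 1 and 2, 0.194 and 0.262 CPM in WT Ribo-seq, and 14.3 and 17.9 CPM in WT RNA-seq. ENST00000387459.1 followed at 7.81, with 541 and 675 CPM in TCP-seq and 2.06 and 2.36 CPM in Ribo-seq. Both were thus high in TCP-seq beside a middling RNA-seq level. The last members, ENST00000545294.5 and ENST00000534246.1, both had a ratio of 3.1, and the first transcripts left out, ENST00000356247.4 and ENST00000448136.5, had 3.1 and 3.09, so no gap separates members from the rest.

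The members are not 300 independent RNAs. Transcripts of a gene share reads, and members whose deviations from their group means correlated above 0.95 over the 42 libraries were put together. This gave 177 read-sharing groups, 124 of them of a single member and the largest of 22. A cut of 0.8 gave 84 groups, 41 of them of a single member and the largest of 38. The number of groups thus depended on the cut, and transcripts with near-equal counts can fall in separate groups at 0.95. Counts of groups below use 0.95 and are no count of independent RNAs. Members were also grouped, after the values had been seen, by RNA-seq level: 32 of them lay within 0.2 (log2) of a common leading transcript in all 12 RNA-seq libraries. In siControl these 32 spanned only 20.6 to 23.3 CPM in RNA-seq and 2.77 to 3.34 CPM in Ribo-seq, whereas in WT TCP-seq 3 and 4 they spanned 50.9 to 289 CPM. They were near-identical in RNA-seq and Ribo-seq and spread out in TCP-seq, and whether they are transcripts of a single gene could not be checked.

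In RNA-seq the members were ordinary transcripts. Their median level was 19 to 24.5 CPM in the 12 RNA-seq libraries, where the eligible transcripts had 20.5 to 21.6 CPM. In the 12 Ribo-seq libraries their median was 1.55 to 2.19 CPM against 18 to 18.6 CPM. In the 12 TCP-seq libraries it was 38 to 56.3 CPM against 16.8 to 19.1 CPM, and in the 6 Sel-TCP-seq libraries 20.9 to 36.5 CPM against 11.2 to 18.6 CPM. The members' median thus lay below the eligible median in every Ribo-seq library and above it in every TCP-seq and Sel-TCP-seq library. CPM is a share of a library, so fewer RNA molecules per cell and a larger rest of the library cannot be told apart. Summed, the members took 0.118% to 0.172% of a Ribo-seq library, 2.68% to 4.03% in TCP-seq and 2.28% to 4.43% in Sel-TCP-seq.

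**Figure D1:**
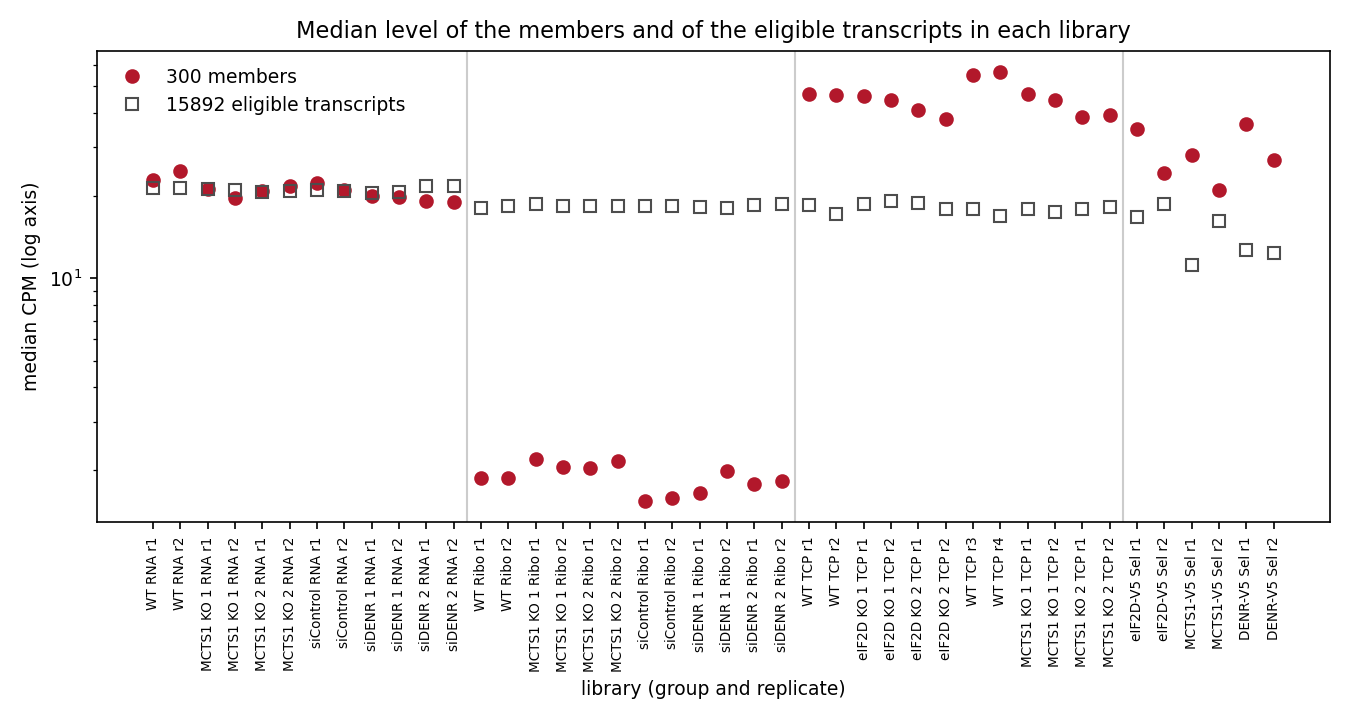
Median CPM (log axis) of the 300 members (filled circles) and of the 15892 eligible transcripts (open squares) in each of the 42 libraries, ordered by assay. The members lie beside the eligible transcripts in RNA-seq, below them in Ribo-seq (1.55 to 2.19 CPM) and above them in TCP-seq (38 to 56.3 CPM) and Sel-TCP-seq.

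The excess of TCP-seq over Ribo-seq was present in libraries that had no part in choosing the members. In MCTS1 KO cells, all 300 members were higher in TCP-seq than in Ribo-seq and 0 were lower (edgeR quasi-likelihood test, adjusted p under 0.05), where 26.6% of all 107690 tested transcripts were higher and 37.5% were lower. The median log2 difference was 4.26 over the members, 4.35 in clone #1 and 4.16 in clone #2, against -0.22 over all tested transcripts. The member that differed least did so by 2.22. WT TCP-seq 3 and 4 set against siControl Ribo-seq, which comes from transfected cells, gave the same count: all 300 members were higher and 0 lower by edgeR, against 22.8% higher and 28.9% lower among 98592 tested transcripts, with a median of 5.23 over the members and -0.17 over all. With DESeq2, and at an unadjusted p under 0.05, 0 members were lower in either comparison. The direction was fixed by the choice of members in other libraries of the same assays, so these counts show that the ratio recurred and say nothing more of its cause.

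ENST00000418539.2 had the largest difference among the members in both comparisons. It had 107, 86, 77 and 79 counts in the 4 MCTS1 KO TCP-seq libraries (54.3, 53.4, 23.4 and 20.5 CPM) and 4, 2, 0 and 0 counts in the matching Ribo-seq libraries, although the TCP-seq totals were 1609303 to 3853825 counts and the Ribo-seq totals 28668241 to 193940882.
It was at 59.1 and 48.4 CPM in WT TCP-seq 3 and 4 and at 0 in both siControl Ribo-seq libraries, at least 557-fold higher with a floor of 3 counts per library. ENST00000612829.5 was at 38.3 and 26.3 CPM against 0, at least 335-fold higher, while its RNA-seq level in siControl was 50.6 and 46.5 CPM. Both are thus plainly present as RNA and nearly without Ribo-seq counts. 3 further members were at 0 in both siControl Ribo-seq libraries, and setting all 5 to their bound left the median at 5.23.

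**Figure D2:**
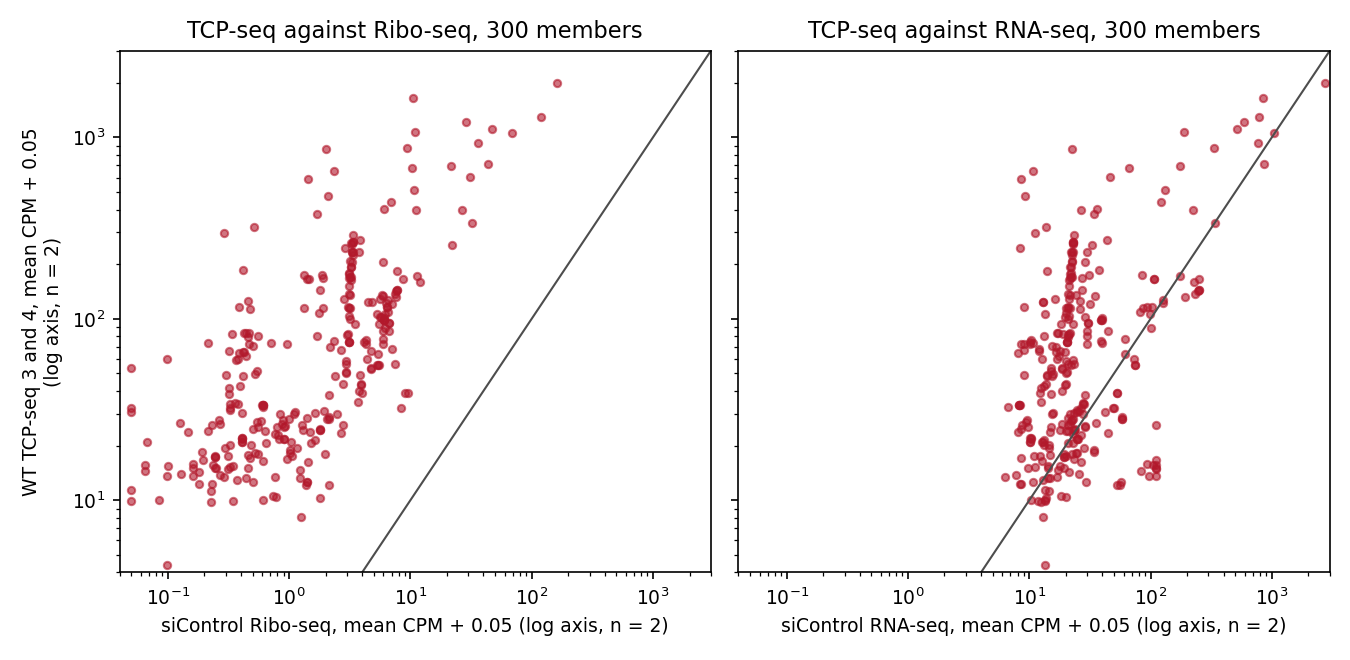
Mean CPM of each member in WT TCP-seq 3 and 4 (vertical, log axis, n = 2) against siControl Ribo-seq (left) and siControl RNA-seq (right), with 0.05 CPM added for the axes only and the line of equality drawn. All 300 members lie above the line against Ribo-seq; against RNA-seq they lie on both sides of it, and columns of points are members that share an RNA-seq and Ribo-seq level.

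The members divide by how TCP-seq compares with RNA-seq, a split made after the values were seen and from the libraries of the rule. For 184 members the mean TCP-seq CPM was at or above the RNA-seq CPM, and for 116 it was below. The 184 had library medians of 85.2 and 91.6 CPM in WT TCP-seq 3 and 4 and of 3.23 and 2.83 CPM in siControl Ribo-seq. The 116 had 21 and 19.5 CPM in WT TCP-seq 3 and 4 and 0.544 and 0.517 CPM in siControl Ribo-seq. Beside the eligible transcripts, at 17.9 and 16.8 CPM in WT TCP-seq 3 and 4 and 18.3 CPM in both siControl Ribo-seq libraries, the 116 were far lower in Ribo-seq and close to them in TCP-seq. The 184 were lower in Ribo-seq and higher in TCP-seq.

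**Figure D3:**
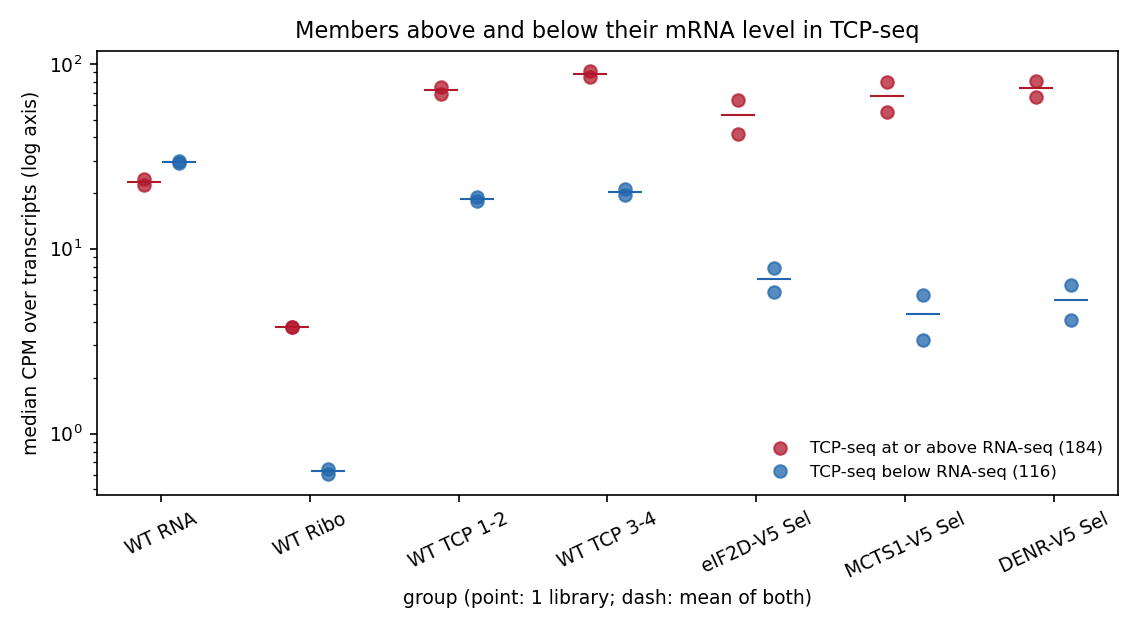
Median CPM (log axis) of the 184 members with TCP-seq at or above RNA-seq and the 116 below, in WT and selection libraries; points are libraries and dashes the mean of both. The 116 lie at 3.22 to 7.87 CPM in the selection libraries, where the 184 lie at 41.6 to 81 CPM. The split was itself made on TCP-seq level, so these levels are description.

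In eIF2D KO cells the members were lower in TCP-seq than in WT replicates 3 and 4. 144 of 300 members fell and 16 rose (edgeR, adjusted p under 0.05), where 4.21% of all 50991 tested transcripts fell and 6.41% rose. Among the other eligible transcripts, 4.82% fell and 12.7% rose. The median log2 change of the members was -0.43, with -0.33 in clone #1 and -0.59 in clone #2, against -0.02 over all tested transcripts and 0.04 over the other eligible transcripts. 142 of the 144 had a negative change in both clones, and the 144 came from 78 of the read-sharing groups. 31 of the 32 members with the shared RNA-seq profile were among them. Without those 32, 113 of 268 fell and 16 rose.

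The control libraries move with this result. The library median of the members was 55.2 and 56.3 CPM in WT TCP-seq 3 and 4, but 47 and 46.5 CPM in WT TCP-seq 1 and 2, 46.2 and 44.6 CPM in eIF2D KO clone #1, and 40.9 and 38 CPM in clone #2. WT 3 and 4 thus lie above every other TCP-seq library, WT 1 and 2 included, although WT 1 and 2 chose the members. By library name the eIF2D KO libraries run on from WT 1 and 2, and WT 3 and 4 run on to the MCTS1 KO libraries, so that for the eIF2D KO the run of library names and the genotype cannot be told apart when WT 3 and 4 are the control. Against WT 1 and 2 the median change was -0.20 over the members and -0.03 over the other eligible transcripts, given with no test.

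Members were therefore also rechosen so that WT libraries 1 and 2 could serve as a control outside the rule. With members chosen from WT 3 and 4 and WT 1 and 2 as the control, 34 of 300 fell and 3 rose in the eIF2D KO (edgeR), against 0.953% and 0.677% of all 50991 tested transcripts, with a median of -0.18. With members chosen from WT 1 and WT 2 alone as the control, 18 fell and 0 rose, against 0.618% and 0.107% of 57158 tested transcripts, with a median of -0.20. The reverse choice, WT 2 for the members and WT 1 as the control, gave 10 that fell and 1 that rose, against 0.218% and 0.0971% of 57671 transcripts, with a median of -0.11. The members were lower in the eIF2D KO in each of these fits, by less than a median of 0.43. Without WT TCP-seq replicate 3 the rises against WT 3 and 4 dropped from 16 to 3.

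**Figure D4:**
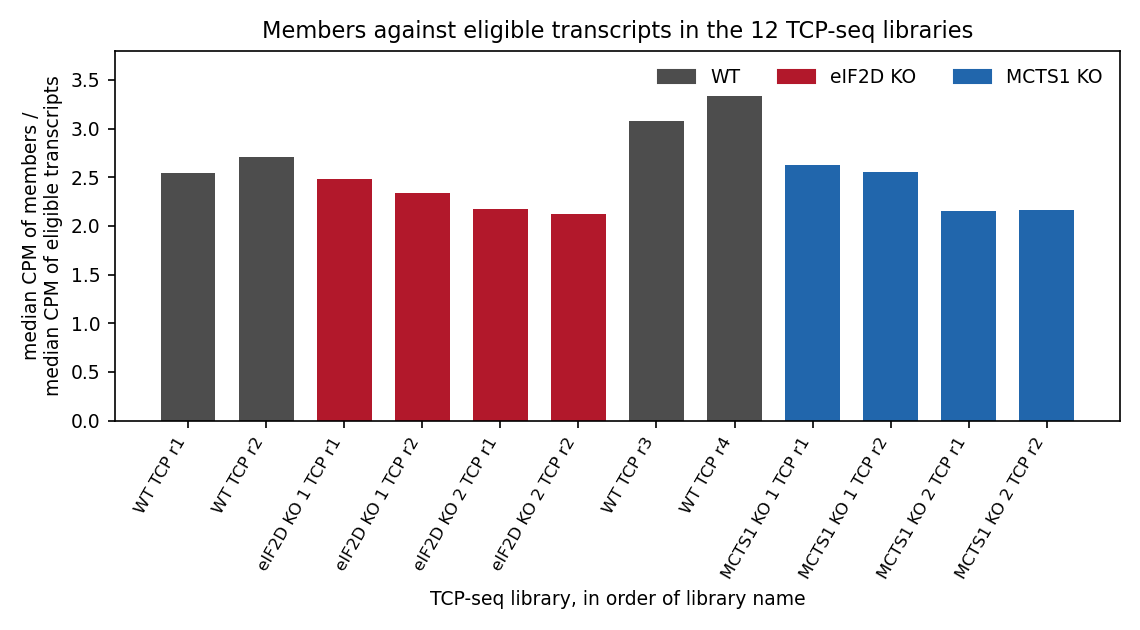
Median CPM of the 300 members divided by that of the eligible transcripts in each of the 12 TCP-seq libraries, in order of library name, with bars from 0. WT replicates 3 and 4 are at 3.08 and 3.34, WT replicates 1 and 2 at 2.54 and 2.71, and the KO libraries between 2.12 and 2.63.

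Among members that fell in the eIF2D KO, ENST00000505522.6 had 34.6 and 24.7 CPM in WT TCP-seq 3 and 4, 10.9 and 12.8 CPM in clone #1 and 15.6 and 14.8 CPM in clone #2, a log2 change of -1.22 ± 0.19 (SE, edgeR adjusted p = 1.5e-07). All 4 KO libraries lay below WT 3 and 4, but WT 1 and 2, at 14.6 and 17.2 CPM, lay within or just above the KO range. ENST00000658121.1 fell from 14.7 and 10.5 CPM to between 4.95 and 6.71 CPM, a change of -1.27 ± 0.28 (SE, edgeR adjusted p = 0.00045), from only 15 to 36 counts per library; without WT replicate 3 its adjusted p was 0.16.
Of those that rose, ENST00000623936.2 had 97.8 and 114 CPM in WT 3 and 4 and 157, 137, 176 and 205 CPM in the KO libraries, a change of 0.59 ± 0.11 (SE, edgeR adjusted p = 1.1e-05). ENST00000491833.5 rose from 33.4 and 36.3 CPM to between 40.1 and 66.9 CPM, a change of 0.66 ± 0.14 (SE, edgeR adjusted p = 0.00042). Without WT replicate 3 the adjusted p of these 2 was 0.061 and 0.088. WT 1 and 2 overlapped the KO range for both, at 149 and 161 CPM and at 54.2 and 41.1 CPM.

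The 2 eIF2D KO clones differed from each other among the members. 91 of 300 members differed between the clones by edgeR, 56 of them higher in clone #1, against 8.97% of all 50991 tested transcripts in either direction.

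In MCTS1 KO cells the members were also lower in TCP-seq than in WT 3 and 4, here with controls that neighbour the KO libraries by name. 162 of 300 fell and 30 rose (edgeR), where 6.82% of all 50991 tested transcripts fell and 6.94% rose. Among the other eligible transcripts, 9.93% fell and 12.8% rose. The median change of the members was -0.48, with -0.32 in clone #1 and -0.62 in clone #2, against -0.01 over all tested transcripts. 158 of the 162 were negative in both clones, the 162 came from 90 read-sharing groups, and 131 of 268 fell outside the 32 members of shared RNA-seq profile. The library median of the members was 46.7 and 44.4 CPM in clone #1 and 38.5 and 39.3 CPM in clone #2, all below WT 3 and 4. The eIF2D KO and MCTS1 KO comparisons share WT 3 and 4 as controls, so their likeness is no separate result.

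With members rechosen from WT 3 and 4 and WT 1 and 2 as the control, 55 of 300 fell and 14 rose in the MCTS1 KO (edgeR), against 3.61% and 3.12% of 50991 tested transcripts, with a median of -0.23. Against the same control, the eligible transcripts other than the original members had a median of -0.09, so part of this fall was not particular to the members. Without WT replicate 4, 104 of the original members fell and 18 rose, and without WT replicate 3, 11 rose. The fall thus held its direction in these fits while its size depended on the WT libraries. Between the MCTS1 KO clones, 43 members differed, 40 of them higher in clone #1, against 3.48% of all tested transcripts in either direction.

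ENST00000474892.1 had 19.6 and 22.1 CPM in WT TCP-seq 3 and 4 and 9.65, 6.84, 6.37 and 8.04 CPM in the MCTS1 KO libraries, a log2 change of -1.45 ± 0.24 (SE, edgeR adjusted p = 2.1e-06). ENST00000521555.6 fell from 20.4 and 14.7 CPM to between 5.46 and 10.6 CPM, a change of -1.41 ± 0.26 (SE, edgeR adjusted p = 1.3e-05). In WT 1 and 2 the former had 13.3 and 6.24 CPM and the latter 13 and 8.32 CPM, so that 1 of the 2 WT libraries lay above the KO range for each transcript and the other did not. In RNA-seq ENST00000521555.6 was at 11.1 and 8.92 CPM in clone #1, 16.5 and 15.7 CPM in clone #2 and 17.1 and 17.9 CPM in WT. Its fall in clone #1 thus came with a lower RNA-seq level.
ENST00000468267.1 rose from 70.5 and 75.2 CPM to 127, 135, 147 and 145 CPM, a change of 0.88 ± 0.11 (SE, edgeR adjusted p = 3.7e-10). Here WT 1 and 2, at 61.3 and 73.3 CPM, lay with WT 3 and 4 and below all 4 KO libraries. Its RNA-seq level was 22.6 and 23.2 CPM in clone #1, 11 and 10.6 CPM in clone #2 and 12.5 and 12.6 CPM in WT. The TCP-seq rise thus came with a higher RNA-seq level in clone #1 and not in clone #2. ENST00000491833.5, named for the eIF2D KO, rose to 60.4, 72.1, 72.5 and 77.6 CPM, a change of 0.97 ± 0.14 (SE, edgeR adjusted p = 7.4e-08), above all 4 WT libraries.

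For the MCTS1 KO, RNA-seq and Ribo-seq can only be described, because the WT libraries of both chose the members. The median RNA-seq change of the members was -0.14, against -0.03 over the other eligible transcripts, with -0.21 in clone #1 and -0.05 in clone #2. The median Ribo-seq change was 0.03 over the 279 members with a value.

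The siRNAs against DENR changed the RNA-seq level of many members, in both directions. 111 of 300 fell and 44 rose (edgeR), where 12.7% of all 131311 tested transcripts fell and 10.5% rose, and where 24.9% of the other eligible transcripts fell and 15.3% rose. The median change was small, at -0.09 against -0.01 over all tested transcripts. All 32 members of the shared RNA-seq profile were among those that fell, so that 79 of 268 fell and 44 rose outside them, with a median of -0.01. Scaled by library totals alone, 102 fell and 72 rose, and without siDENR #1 RNA-seq replicate 1, 85 rose. The 2 siRNAs differed from each other for 156 of 300 members, against 24.9% of all tested transcripts in either direction.

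ENST00000265663.12 had 10.1 and 9.9 CPM in siControl RNA-seq, 40.7 and 36.1 CPM with siDENR #1 and 32 and 28.9 CPM with siDENR #2, a log2 change of 1.75 ± 0.08 (SE, edgeR adjusted p = 4e-27). ENST00000561457.2 rose from 12.5 and 12.9 CPM to 20.8, 18.9, 26.1 and 24.7 CPM, a change of 0.79 ± 0.07 (SE, edgeR adjusted p = 2.4e-13). All 4 siDENR libraries lay above siControl in both cases. Untransfected WT cells lay between siControl and siDENR, at 20.4 and 19.5 CPM for ENST00000265663.12 and 15.7 and 14.7 CPM for ENST00000561457.2.
ENST00000489294.2 had 56.4 and 49.2 CPM in siControl, 34.8 and 47.8 CPM with siDENR #1 and 13.6 and 14.1 CPM with siDENR #2, a change of -1.16 ± 0.07 (SE, edgeR adjusted p = 7e-17). ENST00000545294.5 had nearly the same levels and fell by 1.17 on the log2 scale (SE 0.08, edgeR adjusted p = 5.9e-15). The fall was mostly that of siRNA #2: the change of ENST00000489294.2 was -0.35 with siDENR #1 and -1.98 with siDENR #2. In untransfected WT cells ENST00000489294.2 was at 22.8 and 23.8 CPM, below siControl.

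Of the members tested in Ribo-seq after the siRNA against DENR, 11.2% rose and 4.56% fell. Their level was low, with siControl medians of 1.55 and 1.58 CPM over the 300 against 18.3 CPM over the eligible transcripts. Small changes are therefore less easily called for them. 241 of 300 passed the filter on low counts. Of these, 27 rose and 11 fell (edgeR), where 4.37% of all 108890 tested transcripts rose and 6.05% fell, and where 11.5% of the other eligible transcripts rose and 15% fell. The median was -0.10 against -0.02 over all tested transcripts. The rises numbered 8 without siControl Ribo-seq replicate 1, 16 without replicate 2 and 17 without siDENR #1 replicate 2. The falls numbered 4 without siControl replicate 1 and 26 without siDENR #2 replicate 2. The siRNAs differed from each other for 16 of 241 members, against 11.1% of all tested transcripts in either direction.

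Both rises named here start from siControl levels below those of untransfected WT cells. WT Ribo-seq was 1.28 and 1.33 CPM for ENST00000265663.12 and 1.9 and 1.7 CPM for ENST00000598956.5, within the range of the siDENR libraries. ENST00000265663.12, the largest rise in RNA-seq, also rose in Ribo-seq, from 0.204 and 0.517 CPM (6 and 17 counts) to 1.18 and 2.04 CPM with siDENR #1 and 1.38 and 0.977 CPM with siDENR #2. Its change was 1.88 ± 0.43 (SE, edgeR adjusted p = 0.0015), and the adjusted p was 0.11 without siControl replicate 1. ENST00000598956.5 rose from 0.476 and 0.425 CPM to 0.775, 1.07, 1.74 and 1.95 CPM, a change of 1.50 ± 0.40 (SE, edgeR adjusted p = 0.008), with an adjusted p of 0.068 or 0.12 without either siControl library.
ENST00000545294.5 fell from 9.22 and 7.51 CPM to 5.88 and 6.07 CPM with siDENR #1 and 1.6 and 0.489 CPM with siDENR #2, a change of -1.69 ± 0.18 (SE, edgeR adjusted p = 4.3e-10). ENST00000538489.5, with a nearly equal profile, fell by 1.63 on the log2 scale (SE 0.17, edgeR adjusted p = 6.5e-11). Both therefore fell in RNA-seq levels and Ribo-seq levels with the same siRNA. Untransfected WT cells had 1.86 and 1.91 CPM of ENST00000545294.5 and 1.98 and 2.38 CPM of ENST00000538489.5 in Ribo-seq. These levels lay below siControl and siDENR #1 and above siDENR #2.

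Translational efficiency, the Ribo-seq change beyond the RNA-seq change, rose for 11 of 241 members and fell for 1 after DENR depletion (edgeR interaction of group and assay), where 0.244% of 102515 tested transcripts rose and 0.125% fell. Among the other eligible transcripts, 0.705% rose and 0.244% fell. The median was 0.05 over the members and 0.01 over all tested transcripts. The 11 came from 6 read-sharing groups. ENST00000371132.8 had 0.544 and 0.972 CPM in siControl Ribo-seq and 1.59, 2.77, 1.71 and 1.53 CPM in siDENR Ribo-seq, while its RNA-seq level was 27.3 and 25.8 CPM in siControl and 23.7 to 26 CPM with siDENR. In untransfected WT cells it was at 1.43 and 1.57 CPM in Ribo-seq, above siControl, and at 29.9 and 31.2 CPM in RNA-seq. Its efficiency rose by 1.40 ± 0.26 (SE, edgeR adjusted p = 0.0022). ENST00000358029.8, whose counts follow it closely, rose by 1.34 ± 0.26 (SE, edgeR adjusted p = 0.0034). Its WT Ribo-seq level, 1.43 and 1.54 CPM, was also above siControl. Without siControl Ribo-seq replicate 1, at 16 and 17 counts for these 2, the adjusted p was 0.14 and 0.16, and the number of rises over the members was 1. Rises numbered 7 without siControl Ribo-seq replicate 2 or siControl RNA-seq replicate 2 and 5 without siControl RNA-seq replicate 1.
The 1 member whose efficiency fell, ENST00000530019.5, is named because it was the only one, after its values were seen. It had 5.92 and 5.77 CPM in siControl Ribo-seq, 2.04 and 2.43 CPM with siDENR #1 and 5.52 and 8.31 CPM with siDENR #2, a change of -0.65 ± 0.14 (SE, edgeR adjusted p = 0.016). The siRNAs went opposite ways, at -1.68 and 0.38. Leaving out 1 library at a time gave 0 to 3 such members.

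**Figure D5:**
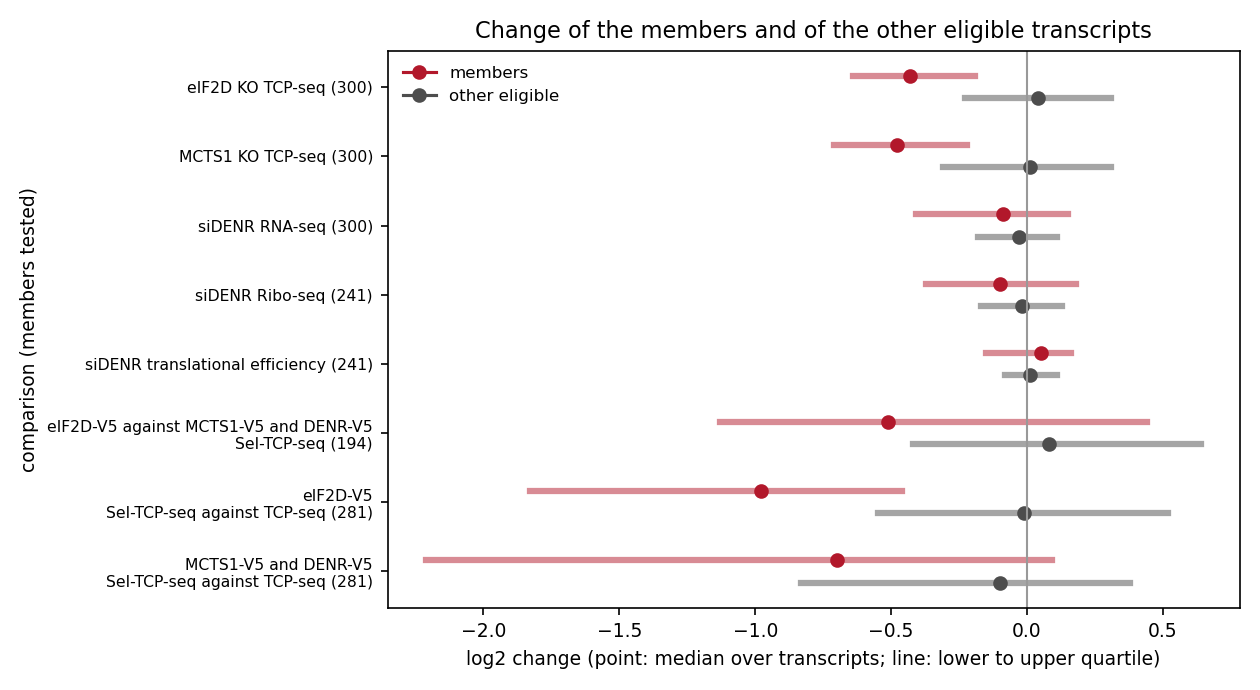
Median log2 change (points) with lower and upper quartile (lines) of the members and of the other eligible transcripts in 8 comparisons, with the number of members tested in brackets. The members lie below the other eligible transcripts in both KO comparisons in TCP-seq (-0.43 and -0.48) and in the 3 selection comparisons, and near them after DENR depletion.

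In 40S Sel-TCP-seq the members differed widely in level. Of the 300, 1 and 0 had no count in the eIF2D-V5 libraries, 40 and 50 in the MCTS1-V5 libraries and 23 and 39 in the DENR-V5 libraries. Their library medians were 34.9 and 24.2 CPM with eIF2D-V5, 28.1 and 20.9 CPM with MCTS1-V5 and 36.5 and 26.9 CPM with DENR-V5, from 1.3 to 2.88 times those of the eligible transcripts. The 184 members at or above their RNA-seq level had 63.9 and 41.6 CPM with eIF2D-V5, 80.1 and 54.7 CPM with MCTS1-V5 and 81 and 66.3 CPM with DENR-V5. The 116 others were at 7.87 and 5.81 CPM, 5.62 and 3.22 CPM, and 6.35 and 4.14 CPM, below the eligible transcripts in all 6 libraries. The split was itself made on TCP-seq level, so a difference in these related libraries is description and was not tested.

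Between the tagged proteins, whether more members were called lower or higher depended on the filter, the scaling and single libraries. 194 members passed the filter on low counts, with a median of 99 CPM in WT TCP-seq 3 and 4, and the 106 that did not had a median of 20.8 CPM. Of the 194, 51 were lower and 12 higher with eIF2D-V5 than with MCTS1-V5 and DENR-V5 (edgeR), where 9.32% of 12135 tested transcripts were lower and 12.8% higher, with a median of -0.51 over these members and 0.03 over all tested. Among the other eligible transcripts tested, 7.1% were lower and 13.2% higher. Without the filter, all 300 were tested, 25 were lower and 43 higher, where 0.444% and 2.85% of 125813 transcripts were, and the median was -0.07. Of the 106 members outside the filter, 16 were then higher and 0 lower. DESeq2 called 27 lower and 3 higher. With library totals alone 26 were lower and 33 higher, a scaling that moved the median of all tested transcripts from 0.03 to 0.38 and left the members 0.60 below the other eligible transcripts.
Leaving out a library moved the counts as much. Without eIF2D-V5 replicate 1, 94 were lower and 2 higher, and without eIF2D-V5 replicate 2, 10 were lower and 31 higher. Without MCTS1-V5 replicate 1, 47 were higher, and without MCTS1-V5 replicate 2, 102 were lower.

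Of the members lower with eIF2D-V5, the 2 with the largest differences are given, 1 per read-sharing group. ENST00000475346.1 had 56 and 37.2 CPM with eIF2D-V5, 146 and 78.8 CPM with MCTS1-V5 and 162 and 135 CPM with DENR-V5, a log2 difference of -1.64 ± 0.33 (SE, edgeR adjusted p = 0.0042). ENST00000479228.1 had 2.95 and 3.1 CPM (3 and 8 counts) with eIF2D-V5 against 22.5, 17.7, 15.9 and 20.7 CPM with the others, a difference of -2.74 ± 0.56 (SE, edgeR adjusted p = 0.0042). The eIF2D-V5 libraries lay below all 4 others in both cases.
ENST00000501122.2 was higher with eIF2D-V5, at 52.1 and 26.3 CPM, than with MCTS1-V5, at 19.7 and 11.3 CPM, or DENR-V5, at 6.35 and 0 CPM, a difference of 2.23 ± 0.54 (SE, edgeR adjusted p = 0.011). ENST00000649757.1 had 83.6 and 40.7 CPM with eIF2D-V5 against 22.5, 8.04, 31.8 and 18.6 CPM, a difference of 1.55 ± 0.44 (SE, edgeR adjusted p = 0.023), with an adjusted p of 0.064 by DESeq2 and of 0.14 without eIF2D-V5 replicate 1.

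Against plain TCP-seq of WT replicates 3 and 4, the members were lower in the selected fractions. These comparisons span assays with different totals and share their controls, and 281 members passed the filter. The members were chosen for a high WT TCP-seq level, which by itself favours lower values in another assay. The direction is therefore not independent of the choice, and the share owed to it was not tested. With eIF2D-V5, 155 were lower and 0 higher (edgeR), where 15.9% of 19048 tested transcripts were lower and 18.4% higher, with a median of -0.98 over the members and 0.01 over all tested. Among the other eligible transcripts tested, 15.2% were lower and 15.5% higher. At an unadjusted p under 0.05 4 members were higher, and 0 by DESeq2. With MCTS1-V5 and DENR-V5 together, 133 were lower and 20 higher, where 17.1% and 10.1% of all tested transcripts were, with a median of -0.70 over the members and -0.01 over all tested. Among the other eligible transcripts tested, 19.6% were lower and 9.2% higher. The median of the members was -1.17 outside the 32 members of shared RNA-seq profile, and -0.93 by library totals alone, which moved all tested transcripts to -0.23.
WT 3 and 4, which stand above the other TCP-seq libraries for these members, are the control here too. Without WT replicate 3 or 4, 81 or 102 members were lower with eIF2D-V5, and 2 or 1 were higher with MCTS1-V5 and DENR-V5. Without eIF2D-V5 replicate 1, 234 were lower with eIF2D-V5, and without replicate 2, 97 were lower and 15 higher.

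ENST00000545294.5 had 31.4 and 32.6 CPM in WT TCP-seq 3 and 4 and 3.93 and 2.32 CPM (4 and 6 counts) with eIF2D-V5, a log2 difference of -3.55 ± 0.41 (SE, edgeR adjusted p = 5e-06). ENST00000474892.1, which fell in the MCTS1 KO, had 19.6 and 22.1 CPM against 1.97 and 2.32 CPM (2 and 6 counts) with eIF2D-V5, a difference of -3.26 ± 0.49 (SE, edgeR adjusted p = 5.2e-05). Both were low with every tagged protein.
ENST00000663097.1 went the other way, with 46.5 and 40.5 CPM in TCP-seq, 163 and 93.2 CPM with MCTS1-V5 and 221 and 143 CPM with DENR-V5, a difference of 1.88 ± 0.33 (SE, edgeR adjusted p = 0.00095). It had 119 and 60.4 CPM with eIF2D-V5, and so lay above TCP-seq in all 6 selected libraries. ENST00000530089.6 had 68.9 and 61 CPM in TCP-seq against 191, 94.8, 144 and 166 CPM with MCTS1-V5 and DENR-V5, a difference of 1.25 ± 0.36 (SE, edgeR adjusted p = 0.018), with an adjusted p of 0.12 or 0.13 without either WT library.

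12 members had no count in any of the 4 MCTS1-V5 and DENR-V5 libraries, whose totals sum to 2090466 counts, which allows a level of up to 1.44 CPM over the 4 together (3 counts, covering counting error only). These 12 had means of 12.3 to 34 CPM in WT TCP-seq 3 and 4 and 3 to 9 counts in eIF2D-V5 replicate 1 and 3 to 16 in replicate 2. ENST00000644027.1 had 30.6 and 37.4 CPM in WT TCP-seq 3 and 4 (75 and 71 counts), 8.85 and 6.19 CPM with eIF2D-V5 (9 and 16 counts) and 0 with MCTS1-V5 and DENR-V5, at least 5.61-fold lower than TCP-seq with a floor of 3 counts per library. ENST00000643071.1 followed it closely, with 28.9 and 38.4 CPM in TCP-seq and the same counts in all 6 selected libraries. Both thus had counts in every TCP-seq and eIF2D-V5 library and none in the MCTS1-V5 and DENR-V5 libraries.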

How the data were processed

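Counts per transcript were deposited by the authors in a single table; reads were handled with cutadapt, STAR, Subread and featureCounts on GRCh38.p13 (hg38), per the submitters' processing notes. For strand and for reads shared between transcripts, no counting option is stated in the labels or notes. Of 226882 identifiers, 218062 had a count, with 190420 distinct profiles. 42 of 52 labelled samples had a column, and the other 10 were not analysed here.

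Each comparison was fitted on the whole table with edgeR 4.0.16 in R 4.3.3 (TMM scaling, filterByExpr with a minimum count of 10, robust quasi-likelihood test, Benjamini-Hochberg adjusted p under 0.05), and the scripts were tested on simulated data. KO clones or siRNAs were averaged with equal weight. Members were summarised by counts and medians with Python 3.11.15, beside the other eligible transcripts. Alternatives were DESeq2 1.42.0, library totals without TMM, no filter on low counts, the replicate number as a block, each library left out, and other choices of members (5 CPM added, 100 members, a mean count of at least 100, other WT libraries). Leaving out the 32 members of shared RNA-seq profile was added after seeing the data. Members and lists were chosen with earlier results of these data known. Named transcripts are the 2 largest called changes in each direction, 1 per read-sharing group. Their direction had to be shared by both clones, both siRNAs or both reference proteins where a comparison had them. Some named pairs still have near-equal counts and are not separate observations. The number named was reduced from the plan because identifiers could not be paired with genes. The planned gene lists and markers were not used for the same reason. Floors cover counting error only. The SE values were derived from edgeR's quasi-likelihood test and include the estimated spread among libraries.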

Additional observations from a re-analysis of the deposited data

Results flagged for a closer look

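Several named members differed between the 2 clones or the 2 siRNAs given for the same gene, by edgeR's test of the first minus the second. In eIF2D KO TCP-seq, the rise of ENST00000623936.2 was smaller in clone #1 than in clone #2, with a log2 difference of -0.46 ± 0.11 (SE, adjusted p = 0.0029). In RNA-seq with siDENR, ENST00000265663.12 rose more with siDENR #1, by 0.39 ± 0.08 (SE, adjusted p = 7.3e-05), and ENST00000561457.2 rose less, with a difference of -0.31 ± 0.08 (SE, adjusted p = 0.0027).

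ENST00000545294.5 and ENST00000489294.2 fell mostly with siDENR #2, with differences in RNA-seq of 1.64 ± 0.10 (SE, edgeR adjusted p = 1.9e-16) and 1.63 ± 0.09 (SE, edgeR adjusted p = 1.5e-18). In Ribo-seq the difference was 2.36 ± 0.26 (SE, edgeR adjusted p = 8.7e-10) for ENST00000545294.5 and 2.28 ± 0.24 (SE, edgeR adjusted p = 1e-10) for ENST00000538489.5. These 3 transcripts have near-equal counts and are not separate observations. The cause of the differences was not tested.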

How the results depend on the processing

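Values here are percentages of the members called. Between tagged proteins, calls went from mostly lower to mostly higher with library totals, without the filter and without eIF2D-V5 replicate 2, while the median over the members stayed negative, at -0.17, -0.07 and -0.05 in place of -0.51. Leaving out 1 library at a time gave, for TCP-seq over Ribo-seq, 100 to 100 higher and 0 to 0 lower in MCTS1 KO and 99.3 to 100 higher and 0 to 0 lower in WT and siControl. It gave 1 to 5.67 higher and 35.3 to 49 lower in the eIF2D KO, 3.67 to 11.3 and 34.7 to 54 in the MCTS1 KO, 11 to 28.3 and 30.3 to 46 for siDENR RNA-seq, 2.67 to 10 and 1.33 to 8.67 for siDENR Ribo-seq, and 0.333 to 3.67 and 0 to 1 for translational efficiency. It gave 0.667 to 15.7 higher and 3.33 to 34 lower for eIF2D-V5 against the other tagged proteins, 0 to 5 and 27 to 78 for eIF2D-V5 against TCP-seq, and 0.333 to 7.67 and 31 to 53.7 for MCTS1-V5 and DENR-V5 against TCP-seq.

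With members rechosen, the eIF2D KO had 0, 0.333 and 1 higher in place of 5.33 and 6, 3.33 and 11.3 lower in place of 48, and the MCTS1 KO 4.67 higher in place of 10 and 18.3 lower in place of 54. With 100 members, 0 were higher in the eIF2D KO, 9 for siDENR RNA-seq, 2 higher and 0 lower for siDENR Ribo-seq, 0 higher and 0 lower for efficiency, and 8 higher between tagged proteins. With 5 CPM added, 9 were higher for siDENR RNA-seq, 1.67 lower for efficiency, 26.3 lower between tagged proteins and 29.3 lower for MCTS1-V5 and DENR-V5 against TCP-seq. With a mean count of at least 100, siDENR RNA-seq had 7.67 higher and 58 lower, siDENR Ribo-seq 5 higher, efficiency 1.33 lower, the tagged proteins 34.7 lower, and MCTS1-V5 and DENR-V5 against TCP-seq 20.3 lower. Library totals gave 24 higher for siDENR RNA-seq, 11 higher and 8.67 lower between tagged proteins, and 0.667 and 2.67 higher for eIF2D-V5 and for MCTS1-V5 and DENR-V5 against TCP-seq. Without the filter these were 14.3 and 8.33, and 1 and 2.33, with 0.667 lower for efficiency. DESeq2 gave 5.67 higher in the MCTS1 KO, 1.33 lower for siDENR Ribo-seq, 1 higher and 9 lower between tagged proteins, and 2 higher for MCTS1-V5 and DENR-V5 against TCP-seq. Replicate numbers are shared without a stated pairing, and deviations of same-numbered libraries correlated by -0.08 to 0.36. The replicate block gave 11.7 higher and 33 lower between tagged proteins, and moved no count of the other comparisons it was fitted for by over 1.5 times. The cause of these changes was not tested.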
